A study of Drosophila melanogaster with 46 samples.

Results

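The genomic window that holds salm (spalt major, gene ID 34569) and salr (spalt-related, gene ID 34568) of Drosophila melanogaster was examined as a set of accessible regions, from 2L:11330000 to 2L:11470000 on the build dm3. Of the 30774 regions in the deposited count table, 40 lay wholly inside this window, and these 40 regions are described here. They were chosen by position alone, and 1 further region that overlaps the edge of the window was left out. The table gives no gene names. In the RefSeq gene table of Release 6, used here only for names and gene order, salr and salm are neighbours on 2L with 1 long non-coding RNA gene between them, and sala lies beyond salm. No annotation of dm3 was used, so no region is assigned to a promoter, exon or intron of either gene.

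The 2 spalt genes encode zinc finger transcription factors of the Spalt family. In Drosophila the paralogues lie side by side, are expressed in much the same cells and can stand in for each other in several tissues. In the eye they act in the specification of the inner photoreceptors and in the polarity of the ommatidia, and in the antenna they are needed for the formation of the hearing organ. In the wing they are targets of the Dpp signal that places the veins.

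The assay was ATAC-seq: the enzyme Tn5 inserts sequencing adapters where DNA is open, so the number of reads in a region rises with its accessibility. The tissue was the eye-antennal disc, the larval epithelium that forms the eye and the antenna, dissected by hand from wandering larvae of the third instar raised at 25 degrees on normal food. The larvae belonged to 23 inbred DGRP lines (Drosophila Genetic Reference Panel), founded from flies caught in the wild, and the purpose stated for these libraries was to map chromatin accessibility QTLs, loci whose genotype goes with accessibility. Of the 31 libraries, 16 came in pairs from 8 lines and the other 15 lines gave 1 library each. The titles of 15 libraries carry the suffix IR and those of 16 do not. The labels do not say what the suffix means. In the 8 lines with 2 libraries, 1 library carries it and the other does not. The other 15 of the 46 samples in the series, with reporter insertions, sorted cells or chromatin immunoprecipitation, were not analysed here. The labels do not say how many discs went into a library or whether the 2 libraries of a line came from separate dissections, so the p-values rest on a spread between libraries that may be purely technical. Disc RNA was not measured in these files, and the defining genes of the tissue could not be checked.

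Depth differed between libraries, from 1110755 counts in replicate 1 of DGRP_25208 to 12758783, and the median library had 6283136. The window received 1294 to 14775 counts per library, or 0.0964% to 0.133% of the total. No region of the window had a count of 0 in any library. Over all regions on chromosome arms other than 2L and above the median level, the first principal component of the libraries took 40.3% of the variance. Its score is used below as a measured axis along which the libraries differ, with no region of 2L entering it. What sets this axis is not known from the labels.

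The 40 regions covered 23190 bp, or 16.6% of the 140000 bp of the window, with lengths between 207 and 1272 bp and a median length of 472 bp. They are numbered here from 1 to 40 in the order of their coordinates. Levels are given as CPM, counts scaled to a common library size with TMM normalization factors, and as CPM per kb of region where regions are compared with each other. The median level was 23.4 CPM per kb in the window, against 30.4 CPM per kb over all 30774 regions, and 13 of the 40 lay above that median of all regions. Accessibility was concentrated in 3 regions, which together held 45.2% of the CPM of the window.

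The strongest was region 35 (2L:11445446-11446478), at 259 CPM per kb, higher than 99.2% of all regions. It had 185 CPM in the lowest library, a median of 265 CPM and 346 CPM in the highest. Region 7 (2L:11358414-11359206) followed at 167 CPM per kb, with 97.5 CPM at the lowest, 132 CPM at the median and 195 CPM at the highest. Region 36 (2L:11447338-11448140), which starts 860 bp after the end of region 35, had 153 CPM per kb and ranged between 80.3 and 186 CPM with a median of 121 CPM. These 3 regions stand well above the next, region 8 (2L:11362737-11363592) at 58.6 CPM per kb. Region 18 (2L:11393811-11395083) had 55.5 CPM per kb and region 15 (2L:11386064-11386879) had 54.4. Region 3 (2L:11336752-11337708) reached 47.8 CPM per kb and region 12 (2L:11382142-11383407) reached 45.3. The weakest was region 14 (2L:11385340-11385621) at 11.7 CPM per kb, which lies between regions 12 and 15.

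**Figure D1:**
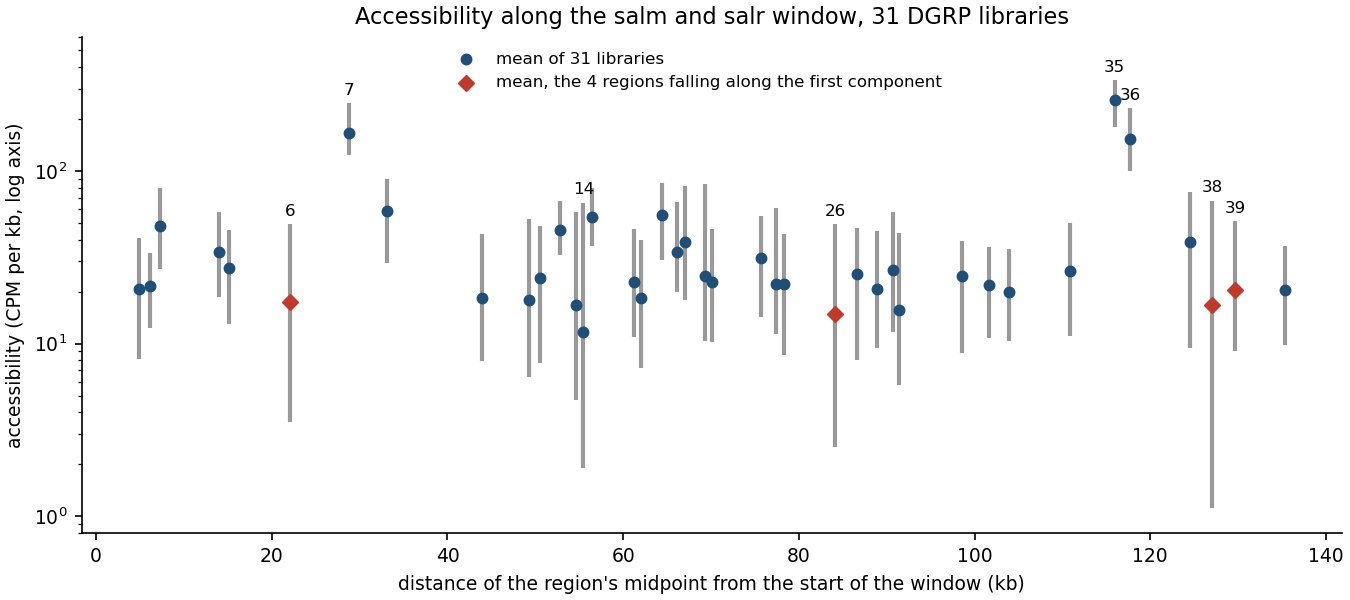
Accessibility of the 40 regions by the distance of their midpoint from the start of the window, in kb. Points are means over 31 libraries in CPM per kb on a log axis, grey bars span the lowest to the highest library, and red diamonds are the 4 regions that fell most along the first component. Regions 7, 35 and 36 stand above all others, and the bars of regions 38 and 26 are among the longest.

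The strongest regions differed in how much they varied. The SD of log2 CPM over the 31 libraries was 0.22 at regions 35 and 7, larger than at 5.3% and 5.6% of all regions. Region 36, although next to region 35, had an SD of 0.38, larger than at 33.4% of all regions. Region 12 was also among the steady ones, with an SD of 0.23 and a range between 41.4 and 84.9 CPM. The median SD was 0.47 in the window and 0.46 over all regions. At the other end, regions 38 (SD 1.56), 26 (1.09) and 6 (0.96) varied more than 99.9%, 96.1% and 91.8% of all regions. Their mean counts were 50.8, 54.2 and 30.7 reads per library, against 1713 and 845 at regions 35 and 7. The SD was not adjusted for count, and the part of count level in this ranking was not tested.

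The summed CPM of the 40 regions was used as a description of the window as a whole. It had a lowest value of 938 CPM, a median of 1164 CPM and a highest value of 1410 CPM over the 31 libraries. Line DGRP_28243, with 1 library, had the highest level at 1409 CPM, followed by DGRP_28123 with a mean of 1352 CPM and DGRP_28202 with 1305 CPM. The lowest were DGRP_25193 at 948 CPM, DGRP_25186 at 981 CPM and DGRP_28222 at 1037 CPM. The highest line mean was 1.49 times the lowest. The within-line SD, from the 8 lines with 2 libraries, was 117 CPM and the SD of the 23 line means was 122 CPM. Each of the 22 steps between neighbouring lines in this order was smaller than the within-line SD, which a sorted list of 23 values makes likely and which says nothing of lines far apart in the order.

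In the 8 lines with both kinds of library, the summed level ranged between 974 and 1342 CPM with the suffix, with a median of 1152 CPM, and between 938 and 1410 CPM without it, with a median of 1175 CPM. The ranges overlap almost completely. The mean difference, with minus without suffix, was -17 ± 62.5 CPM (SE, n = 8 lines), and the library with the suffix was higher in 3 of 8 lines. The largest difference between the libraries of a line was 299 CPM, in DGRP_28265, with 1237 CPM with the suffix and 938 CPM without it.

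**Figure D2:**
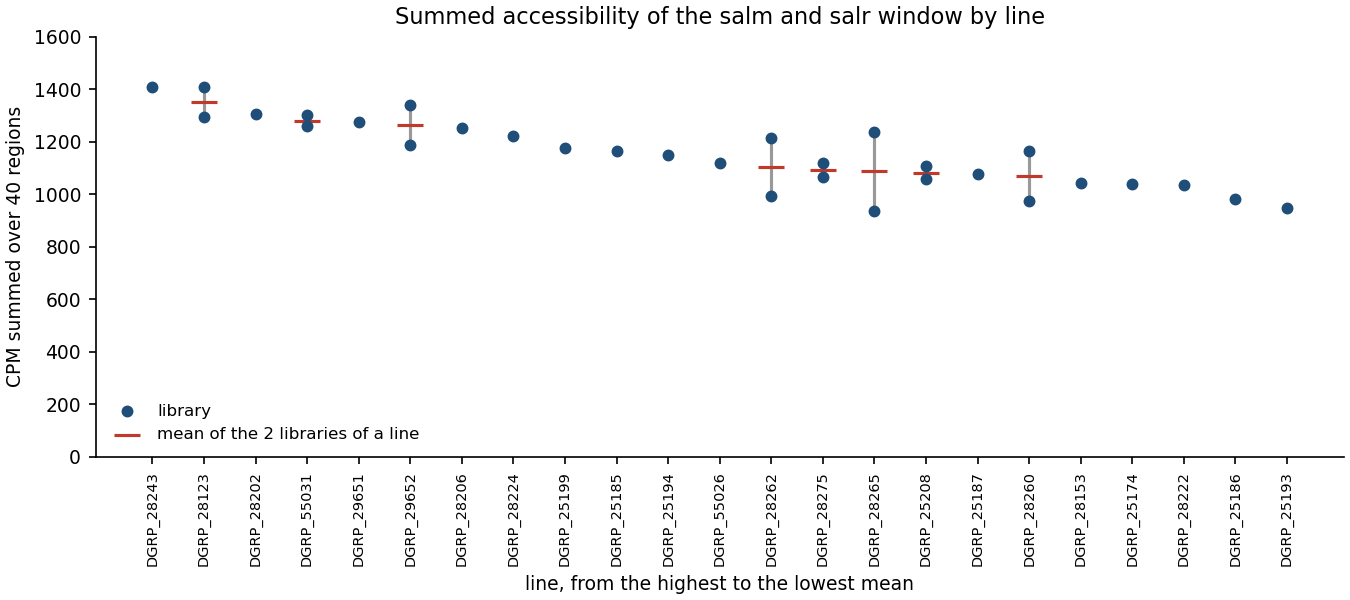
CPM summed over the 40 regions of the window for each of 23 lines, ordered by mean. Points are libraries, grey lines join the 2 libraries of a line and red bars mark their mean; the range within lines such as DGRP_28265 covers much of the range between lines.

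The comparison between lines asked whether any region of the window differed in level among the 23 lines. None of the 40 regions passed the edgeR quasi-likelihood test of all lines together with Benjamini-Hochberg adjustment over all regions, where 0.0942% of all tested regions passed. At an unadjusted p under 0.05 there were 6 of 40 regions (15%), against 7.68% of all regions. The smallest p-values were those of region 10 (2L:11378684-11379782, edgeR adjusted p = 0.404), region 21 (2L:11399101-11399574, edgeR adjusted p = 0.405) and region 36 (edgeR adjusted p = 0.406). DESeq2 called these same 3 regions, with adjusted p = 0.0065 at region 10, 0.0408 at region 21 and 5.37e-05 at region 36, where it called 5.51% of all regions. Only the 8 paired lines give this test its estimate of the spread, with 7 residual degrees of freedom.

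With the score of the first component as a covariate, 8 of 40 regions (20%) differed between lines, where 10.4% of all tested regions did. The flanking window of the same length at higher coordinates had 7 of 35 regions called (20%), that at lower coordinates 2 of 50 (4%), and 2L as a whole 11.9%. Without the single library of DGRP_28243, an alternative chosen after seeing the data, 5 of 40 were called, against 9.97% of all regions. The regions called in both fits were 11, 18, 22, 36 and 37, and those called only with that library were 10, 21 and 24.

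Region 36, one of the 3 strongest, differed between lines in both of these fits (edgeR adjusted p = 0.00737, and 0.0075 without DGRP_28243). Line DGRP_28123 had 182 and 186 CPM in its 2 libraries, DGRP_28202 had 186 CPM, and the median library had 121 CPM. DGRP_28262 lay near the lower end in both libraries, with 81.2 and 83.5 CPM, and DGRP_25186 was lowest with 80.3 CPM. The SD of the line means was 0.33 in log2 units with the suffix and the component removed, against a within-line SD of 0.23. Set against the mean of the other 22 lines with the component as a covariate, DGRP_28123 was higher by 0.67 log2 units (edgeR adjusted p = 0.00463), in a comparison that called 3.11% of all regions. Without the covariate the edgeR adjusted p was 0.0801. In this and the other comparisons of 1 line, p-values were adjusted over regions but not over the 23 lines.

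At region 37 (2L:11454259-11454808) the lowest library was that of DGRP_25194. It had 5.17 CPM, from 42 reads, against 9.07 to 41.6 CPM in the other libraries and a median of 20.4 CPM over all 31. With the component as a covariate the difference from the other lines was -2.14 log2 units (edgeR adjusted p = 0.000846), in a comparison that called 1.24% of all regions. Without the covariate the difference was -2.11 log2 units and did not pass (edgeR adjusted p = 0.39). The line has 1 library, which both tests assume to vary like the lines with 2. No line's own sequence was at hand, and the part of sequence differences in this low count was not tested.

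Of the other regions called with the component as a covariate, region 11 (2L:11380368-11380700) was low in DGRP_25208, with 2.57 CPM (3 reads) and 4.24 CPM in its 2 libraries, and in DGRP_28202 with 3.33 CPM, and highest in DGRP_28224 with 16 CPM (edgeR adjusted p = 0.0269). Region 18 was highest in DGRP_28202, at 109 CPM, and lowest in DGRP_25186, at 39 CPM (edgeR adjusted p = 0.0166). At region 22 (2L:11399829-11400329) DGRP_55031 had 17.5 and 22.9 CPM, against 5.13 and 5.22 CPM in DGRP_25208 (edgeR adjusted p = 0.0458 for all lines together). DGRP_55031 differed from the mean of the other lines there by 1.01 log2 units (edgeR adjusted p = 0.0368), where 1.51% of all regions were called, and with an edgeR adjusted p of 0.301 without the covariate. Both libraries of these lines lay on the same side of the median of 10.4 CPM.

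Line DGRP_28243 stood out within the window. Its library was the highest of the 31 at 13 of the 40 regions (32.5%), against 6.36% of all regions and 9.41% of the 85 flanking regions. The line lay at least 2-fold above the median of the other libraries at 10 of 40 regions, against 3.37% of all regions. These counts were made after its values had been seen and carry no test. Regions 7, 35 and 36, the 3 strongest, were not among the 13.

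At region 14 the library of DGRP_28243 had 18.4 CPM, from 142 reads, against 0.532 to 4.33 CPM in the other 30 libraries. The neighbouring region 13 (2L:11384375-11384860) had 28.2 CPM in this line, against 2.28 to 12.6 CPM in the others. Region 10 had 58.1 CPM in this line, against 7.04 to 28.8 CPM elsewhere. Region 21 had 39.9 CPM, against 4.89 to 18.6 CPM in the other libraries. In these 4 regions the line was more than 2-fold above every other library. Region 24 (2L:11407059-11407815) had 46.1 CPM in DGRP_28243, against 8.56 to 34.1 CPM elsewhere.

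Regions between these were raised less or not at all. Region 12 had 84.9 CPM in DGRP_28243, against 41.4 to 73.1 CPM elsewhere, and region 20 had 32 CPM, against 7.01 to 25.2 CPM. Region 11, which lies between regions 10 and 13, had 8.16 CPM in DGRP_28243, against a median of 7.95 CPM in the others. Region 15, next to region 14, had 57.7 CPM, against 29.9 to 64.9 CPM. At the 3 strongest regions the line had 289 CPM at region 35, 134 CPM at region 7 and 83.2 CPM at region 36, against medians of 264, 130 and 121 CPM in the other libraries.

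In the planned test of DGRP_28243 against the mean of the other lines, no region of the window passed, where 0.0617% of all regions passed. The smallest edgeR adjusted p was 0.0536, shared by regions 10, 14 and 21, whose differences were 1.79, 2.91 and 1.87 log2 units. At an unadjusted p under 0.05, 13 regions of the window were higher and 1 was lower in DGRP_28243, against 6.27% of all regions higher and 1.31% lower. With the component as a covariate 5 regions were called in this line, where 1.03% of all regions were. They were region 14 (2.93 log2 units, edgeR adjusted p = 0.00146), region 13 (2.16, adjusted p = 0.00178), region 10 (1.51, adjusted p = 0.00261), region 21 (1.63, adjusted p = 0.00392) and region 24 (1.30, adjusted p = 0.0261). The line has 1 library, so this test assumes that it varies like the 8 lines with 2. No region of the window was called in any other line without the covariate.

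**Figure D3:**
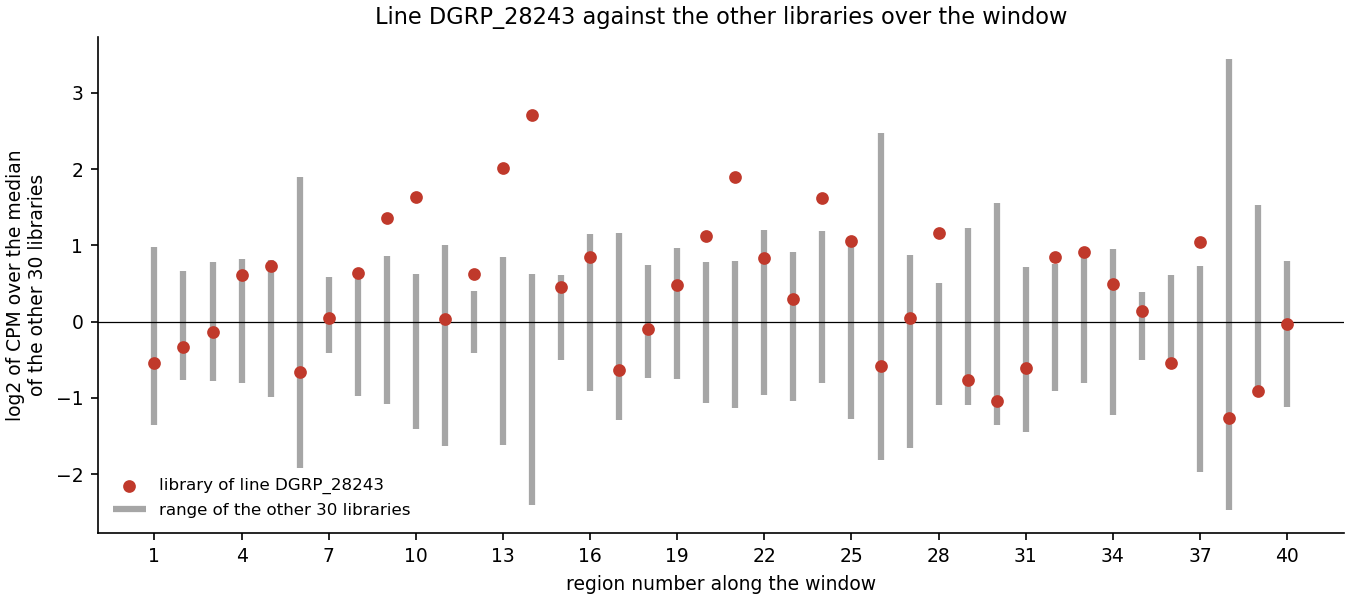
Level of the library of DGRP_28243 (red points) at each of the 40 regions, as log2 of its CPM over the median of the other 30 libraries, beside the range of those 30 (grey bars). The line lies above the grey range at 13 regions, most clearly at regions 10, 13, 14 and 21, and inside it at regions 35 and 36.

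With the component as a covariate, region 10 was also called in DGRP_25185, at -1.27 log2 units from the mean of the other lines (edgeR adjusted p = 0.0249), where 4.79% of all regions were called. Without the covariate the edgeR adjusted p was 0.311, and this line, too, has 1 library that is assumed to vary like the lines with 2. That library had 8.24 CPM at region 10, and DGRP_25174 had the lowest value of 7.04 CPM.

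The comparison by suffix was made on separate sets of libraries, within the 8 lines with both kinds and among the 15 lines with 1 library. Within the 8 lines none of the 40 regions passed edgeR's adjusted threshold, where 0.0293% of all regions passed. At an unadjusted p under 0.05 there were 4 regions, 3 lower and 1 higher with the suffix, against 7.46% of all regions lower and 9.56% higher. The level was lower with the suffix at 27 of 40 regions (67.5%), against 55.9% of all regions. In the flanking windows the share was 54% at lower and 68.6% at higher coordinates. The median difference was -0.12 log2 units in the window and -0.05 over all regions. It was -0.02 in the lower flank and -0.23 in the higher flank.

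Region 31 (2L:11428298-11428893) had the smallest p. It had 5.22 CPM at the lowest, 12.3 CPM at the median and 16.6 CPM at the highest with the suffix, against 12, 16.7 and 20.7 CPM without it. The difference was -0.52 ± 0.13 log2 CPM (SE, n = 8 lines), with the suffix higher in 1 of 8 lines, and the edgeR adjusted p was 0.172. Region 9 (2L:11373748-11374028) had 2.22 to 5.93 CPM with the suffix, with a median of 4.16 CPM, and 4.5 to 8.56 CPM without it, with a median of 5.81 CPM. It differed by -0.61 ± 0.15 log2 CPM (SE, n = 8 lines), was lower with the suffix in every one of the 8 lines, and had an edgeR adjusted p of 0.207. Region 5 (2L:11344996-11345374) differed by -0.35 ± 0.14 log2 CPM (SE, n = 8 lines; edgeR adjusted p = 0.272). The groups overlap at all 3 regions.

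Among the 15 single-library lines, where the line and the suffix cannot be told apart, again none of the 40 passed, against 0.091% of all regions. The level was lower with the suffix at 33 of 40 regions (82.5%), against 56.9% of all regions. In the flanking windows the share was 68% at lower and 60% at higher coordinates. The median difference was -0.27 log2 units in the window and -0.05 over all regions. The library of DGRP_28243, the highest of the 31 at 13 of the 40 regions, was among those without the suffix. Its part in this share and this difference was not tested. At an unadjusted p under 0.05 there were 4 regions, all lower with the suffix, where 5.48% of all regions were lower. Region 8, the fourth strongest of the window, had 25.1 to 47.7 CPM in the 7 libraries with the suffix, with a median of 40.9 CPM. It had 40.8 to 76.8 CPM in the 8 libraries without it, with a median of 55.4 CPM. Its difference was -0.59 ± 0.16 log2 CPM (SE, n = 7 and 8), with an edgeR adjusted p of 0.117. Region 19 (2L:11395560-11396705) had a median of 29.7 CPM with the suffix and 43.5 CPM without it, a difference of -0.56 ± 0.19 log2 CPM (SE, n = 7 and 8; edgeR adjusted p = 0.177). Region 32 (2L:11431442-11431887) had medians of 7.91 and 11.8 CPM with and without the suffix (-0.61 ± 0.20 log2 CPM; SE, n = 7 and 8; edgeR adjusted p = 0.216).

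With the component as a covariate, 2 regions were called in the single-library lines, where 2.23% of all regions were. They were region 19 (-0.61 log2 units, edgeR adjusted p = 0.0287) and region 8 (-0.58 log2 units, edgeR adjusted p = 0.0451). DESeq2 without the covariate called region 8 only (-0.60 log2 units, adjusted p = 0.0167), where it called 2.19% of all regions. Within the 8 lines, region 8 differed by -0.21 ± 0.14 log2 CPM and region 19 by -0.08 ± 0.22 log2 CPM (SE, n = 8 lines), and neither passed. The direction was the same in both sets of libraries at 28 of 40 regions (70%), 24 of them lower with the suffix, against 71.4% of all regions. The difference between the suffix effects of the 2 sets passed the edgeR adjusted threshold at none of the 40 regions and at 0 of all 30773 regions. That fit had no line terms and took the 2 libraries of a line as unpaired. It therefore does not compare the paired differences given above with those of the single-library lines.

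Along the first component 28 of 40 regions (70%) passed the edgeR test, where 61% of all regions did. Of these, 20 rose with the score (50%, against 34.8% of all regions) and 8 fell (20%, against 26.2%). The split depends on the scaling: with library totals in place of TMM factors, 16 passed, of which 7 rose and 9 fell, and 49.7% of all regions passed. At a mean count of 50 or more, 11 of 31 regions passed, where 46.9% of all regions did. Within the 8 lines, with the line as a replicate block, 12 of 40 passed, where 41.2% of all regions did, and in the 15 single-library lines 12 of 40, where 40.8% did. The rises were small, at most 0.33 log2 units per SD of the score. The falls included much steeper slopes, and 4 regions (10%) fell by at least 0.5 log2 units per SD, against 17.4% of all regions. The flanking window at lower coordinates had 14% of its regions past that slope and the one at higher coordinates 34.3%.

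Region 38 (2L:11456766-11457270) fell most. It had 0.562 CPM, from 2 reads, in replicate 1 of DGRP_28260, a median of 3.02 CPM and 33.9 CPM in DGRP_29651, the library with the lowest score. Its log2 CPM fell by 1.49 ± 0.09 per SD of the score (SE, n = 31 libraries; edgeR adjusted p = 3.97e-17). The fits behind the slopes with n = 31 libraries had no line term and took the 2 libraries of a line as independent. With the line as a replicate block in the 16 libraries of the 8 lines, the edgeR adjusted p of region 38 was 3.37e-08. In the 15 single-library lines it was 5.65e-08. Region 26 (2L:11413846-11414435) had 1.48 CPM at the lowest, 5.05 CPM at the median and 28.9 CPM at the highest. It fell by 1.03 ± 0.07 log2 CPM per SD (SE, n = 31 libraries; edgeR adjusted p = 4.83e-16). In both regions the libraries with a low score were high and those with a high score were low, with few exceptions.

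Region 6 (2L:11351920-11352199) ranged between 0.979 CPM, from 3 reads, and 13.8 CPM, with a median of 3.43 CPM, and fell by 0.80 ± 0.10 log2 CPM per SD (SE, n = 31 libraries; edgeR adjusted p = 6.03e-09). Region 39 (2L:11459500-11459842), which follows region 38, had 3.09 to 17.5 CPM with a median of 6.04 CPM and fell by 0.60 ± 0.06 log2 CPM per SD (SE, n = 31 libraries; edgeR adjusted p = 1.22e-09). All 4 are weak regions, between 14.9 and 20.4 CPM per kb on average, and lie apart from each other except for regions 38 and 39. None of the 3 strongest regions passed this test, with slopes of 0.07, 0.03 and -0.07 log2 units per SD at regions 35, 7 and 36.

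The 2 libraries of a line could differ widely at these regions. In DGRP_55031, region 38 had 1.85 CPM (5 reads) with the suffix, where the score was 0.70 SD, and 25.7 CPM (113 reads) without it, where the score was -1.91 SD. In DGRP_29652 the values were 1.94 CPM (21 reads) with the suffix and 27.7 CPM (148 reads) without it. In DGRP_28260 the order was the other way round, with 20.5 CPM (92 reads) with the suffix and 0.562 CPM (2 reads) without it, and the scores were -1.06 and 0.93 SD. DGRP_28275, whose libraries both had low scores, had 14 CPM with the suffix and 16.2 CPM without it. Regions 6 and 26 were lower in the library with the higher score in all 8 lines, and regions 38 and 39 in 7 of 8. The exception in both was DGRP_28275. Some of these differences were slight. At region 6 the folds ran from 1.07 in DGRP_28275 to 6.52 in DGRP_55031, and DGRP_28123 had 13 reads in both libraries. At region 26 they ran from 1.17 in DGRP_28262 to 13.1 in DGRP_55031. The 2 scores lay close together in DGRP_28275 (-1.07 and -0.85 SD) and in DGRP_28262 (0.66 and 0.86 SD). With the line and the suffix as terms in these 16 libraries, an alternative chosen after seeing the data, the edgeR slopes were -1.83, -1.35, -1.08 and -0.89 log2 units per SD at regions 38, 26, 6 and 39, and all 4 passed.

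**Figure D4:**
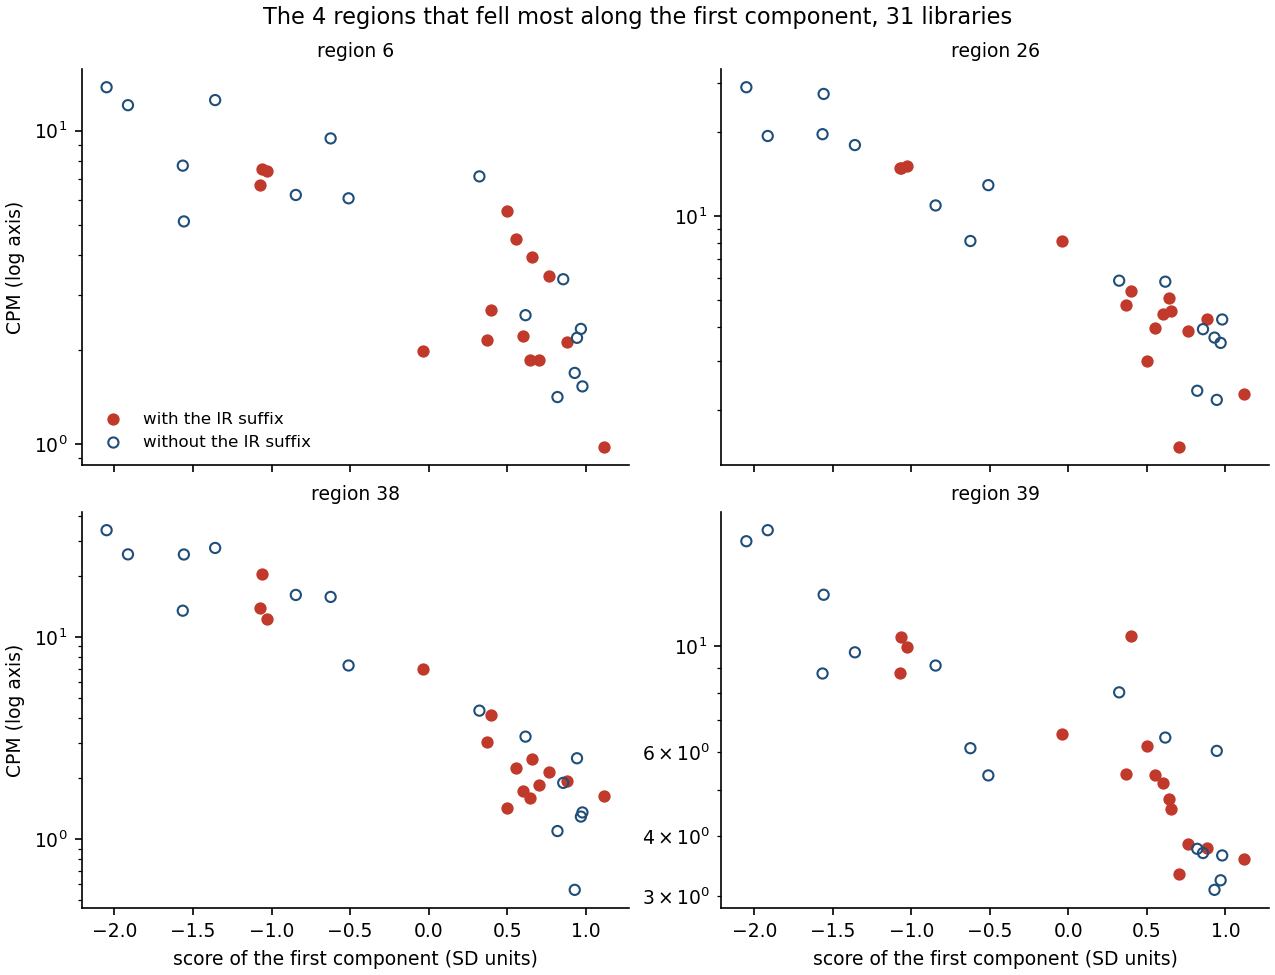
CPM (log axis) of regions 6, 26, 38 and 39 against the score of the first component in SD units, for 15 libraries with the IR suffix (filled red) and 16 without it (open blue). In all 4 regions the level is high at low scores and low at high scores, for both kinds of library.

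The 4 falling regions were picked by their slopes on 1 axis, which by itself raises their likeness to each other. Over the 31 libraries the median Pearson r of log2 CPM was 0.837 among their 6 pairs, between 0.774 and 0.914, and -0.278 over the 144 pairs with the other 36 regions. Among the other regions the median r was 0.175 over 630 pairs. With the suffix and the component removed, the median among the 4 was 0.131. These r describe libraries that share the normalization, 16 of which come in pairs from the same line, and carry no p. By distance, the median r with the suffix and the component removed was 0.262 over the 18 pairs of regions whose starts lay within 2000 bp. These 18 pairs ranged between -0.429 and 0.831. The median r was 0.089 over 91 pairs 2000 to 10000 bp apart and 0.103 over 399 pairs 10000 to 50000 bp apart. Over 272 pairs more than 50000 bp apart it was 0.051.

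The regions with the largest rises were region 14, region 28 (2L:11418714-11419140), region 20 (2L:11396804-11397194) and region 37, with edgeR slopes of 0.33, 0.31, 0.29 and 0.29 log2 units per SD. The edgeR adjusted p-values were 0.0427, 0.00101, 0.00131 and 0.00525. The slope of region 14 rests on 1 library: without DGRP_28243 it was 0.06 and no longer passed, and within the 8 lines with 2 libraries it was -0.05 (edgeR adjusted p = 0.866). The 4 regions also had their highest level in DGRP_28243, at 18.4, 19.2, 32 and 41.6 CPM. That library had a score of 0.97 SD. The other 4 regions that fell were regions 1 (2L:11334785-11334992), 2 (2L:11335922-11336364), 29 (2L:11420540-11421008) and 31, by 0.18 to 0.34 log2 units per SD.

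**Figure D5:**
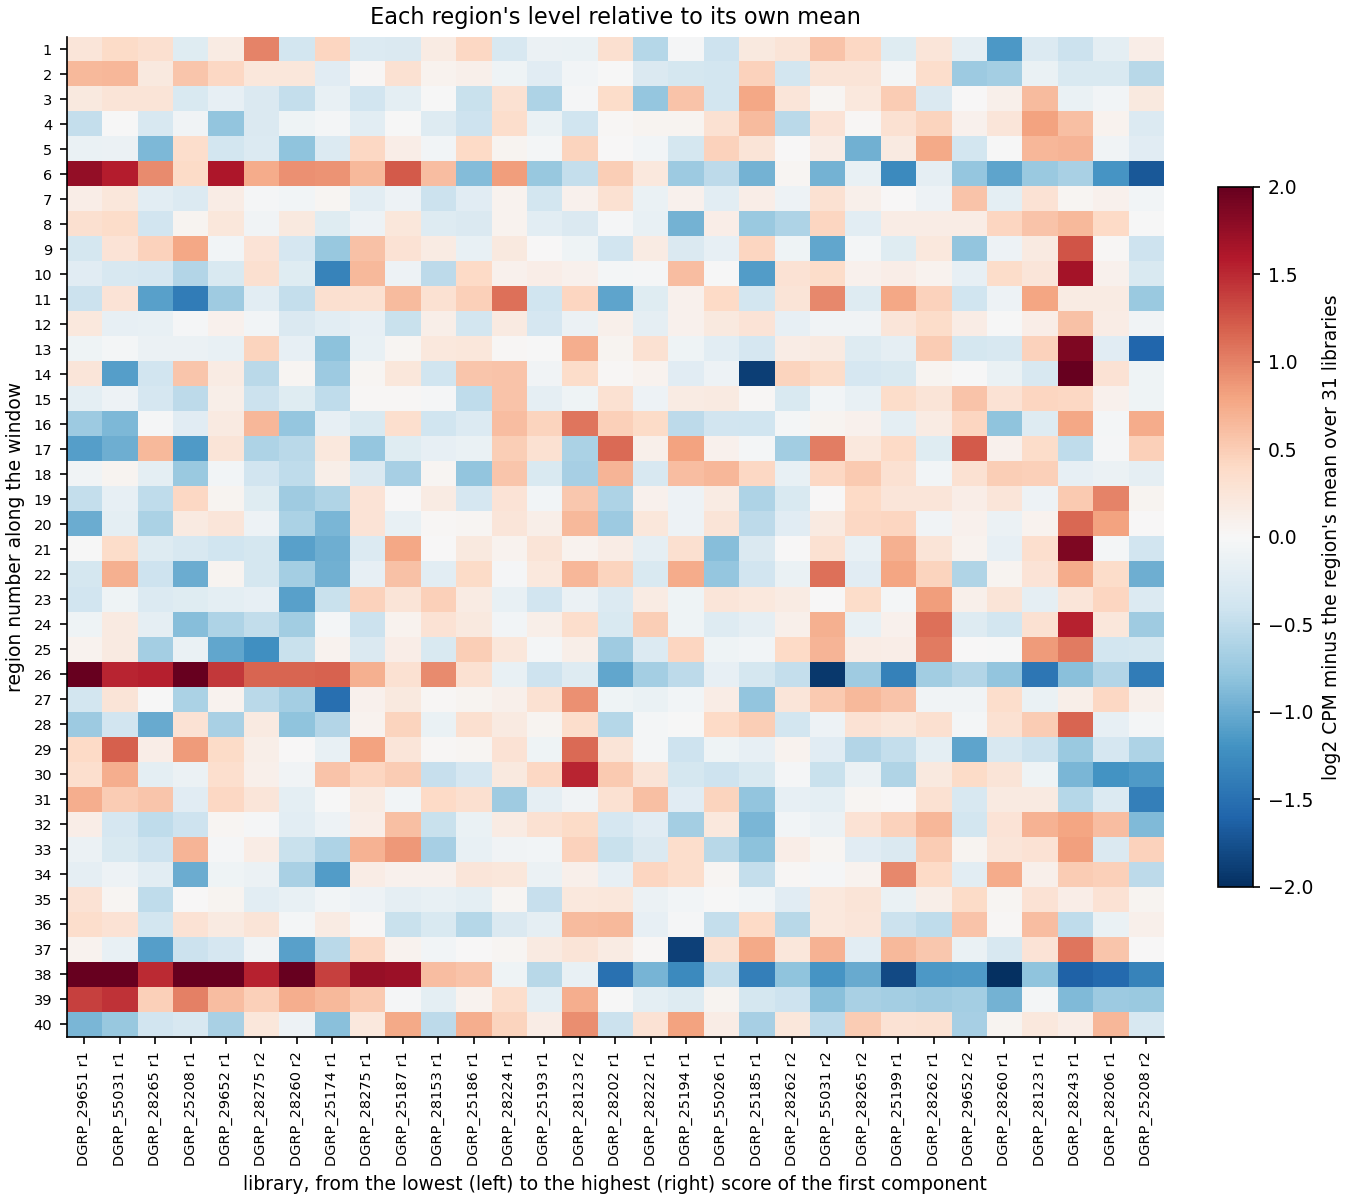
Level of each region (rows, 1 to 40 along the window) in each of 31 libraries (columns, from the lowest to the highest score of the first component; r1 and r2 are replicates 1 and 2), as log2 CPM minus the region's own mean. Red is above and blue below that mean, with colours capped at 2 log2 units; regions 6, 26, 38 and 39 turn from red to blue along the score, and the column of DGRP_28243 is red at regions 10, 13, 14, 21 and 24.

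By the rule for likeness, the regions outside the window whose log2 CPM over the 31 libraries was most like that of region 35 were 3L:4626553-4627435 (Pearson r = 0.910, Spearman rho = 0.889), 2L:11807609-11808390 (r = 0.864, rho = 0.858) and 3R:24151856-24152978 (r = 0.862, rho = 0.866). They were followed by 2L:15425551-15426333 (r = 0.855, rho = 0.838) and 3R:1833029-1834560 (r = 0.850, rho = 0.792). With the suffix and the component removed, 3L:4626553-4627435 and 2L:11807609-11808390 led with r = 0.903 each. These regions were picked for the highest r among all regions, so the values are a description. They had 107 to 256 CPM per kb, and no gene was assigned to them.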

How the data were processed

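The authors deposited 1 table of unnormalized read counts, with regions in rows and libraries in columns. Per the submitters' processing notes, dm3 was the genome build and the tools included Bowtie2, featureCounts, MACS2 and DESeq2, without versions. The sources used here do not give the handling of duplicates, of multiply mapped reads or of the Tn5 cut offset; counts near repeats or at the borders of a region depend on it. Coordinates are as deposited. Whether starts count from 0 or 1 is not stated, and lengths are end minus start.

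Libraries were grouped by the line given as their genotype, and the line name pairs the 2 libraries of each of 8 lines. Their counts differed by more than sampling noise in every line (chi-square per degree of freedom 8.57 to 29.5), so they were kept as separate libraries. Counts were analysed over the whole table with edgeR 4.0.16 in R 4.3.3, with TMM factors, robust quasi-likelihood tests, Benjamini-Hochberg adjustment and a threshold of 0.05. A region was tested if 2 or more libraries reached the CPM that equals 10 counts in a library of median size, and all 40 regions of the window passed. Log2 CPM carries a prior count of 2. Lines were tested jointly in the 31 libraries with a suffix term; the suffix was tested within the 8 lines with the line as a block and among the 15 single-library lines; each line was set against the mean of the others; and the component was tested with a suffix term. For single lines the adjustment was made over regions within each line and not over the 23 lines. DESeq2 1.42.0 and limma 3.58.1 (voom) served as other tests. The scripts were tested on simulated counts.

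The window, the regions compared and the tests were chosen with earlier results of these data known. The main rule named the 8 strongest regions and those with the smallest p in each test. It also named the 4 largest rises and 4 largest falls along the component. The last were the 4 whose line means spread most among the regions at or above the window's median level. Outside that rule, regions 11, 13 and 24 were named for calls with the component as a covariate. Regions 1, 2 and 29 were named as further falls along the component. Sequences, promoters and motifs were not examined, since no sequence tables or dm3 genome were used here.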

Additional observations from a re-analysis of the deposited data

Results flagged for a closer look

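The summed window and the 24 regions named by the main rule were checked in 4 groups of libraries. The groups were made by suffix and by lines with 2 libraries or 1, which gave 100 sets of values. A library lay apart from the rest of its group in 12 sets. Chance gives about 1 in 20 for values not picked beforehand, but many of these regions were named for their spread, so the 12 cannot be read against that rate. They came from 4 libraries and are not independent. Most lay among the 8 single-library lines without the suffix. The summed window was not among them.

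Line DGRP_28243 stood apart above its group in 5 of the 24 regions checked. It had 58.1 CPM at region 10, against 19.9 CPM in the next library, and 39.9 CPM at region 21, against 18.6 CPM. At region 9 it had 12 CPM, against 5.99 CPM, at region 14 it had 18.4 CPM, against 4.33 CPM, and at region 28 it had 19.2 CPM, against 11.6 CPM. Regions 13 and 24, also called in this line with the component as a covariate, were not among the regions checked.

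Line DGRP_29651, which has the lowest score of the first component, stood apart above its group in 4 regions. It had 33.9 CPM at region 38, against 15.8 CPM in the next library, 28.9 CPM at region 26, against 12.9 CPM, 16.6 CPM at region 39, against 8.01 CPM, and 151 CPM at region 36, against 108 CPM. Among the 7 single-library lines with the suffix, DGRP_25174 had 15.1 CPM at region 26, against 8.11 CPM in the next, and 9.98 CPM at region 39, against 6.55 CPM. Replicate 2 of DGRP_29652 had 64.9 CPM at region 15, against 41.8 CPM in the next of the 8 libraries with the suffix.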

How the results depend on the processing

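The count of regions of the window called between lines was 0 and became 3 with DESeq2, 8 with the first component as a covariate and 5 with that covariate and the library of DGRP_28243 left out; leaving out a library of the 8 lines in turn gave 0 to 0. In the 16 paired libraries with the replicate block it was 0. For the suffix it stayed 0 within the 8 lines under all alternatives run, without the replicate block too (0 to 0 with a line left out); in the single-library lines it was 0 (0 to 0 with a library left out), but 1 with DESeq2 (region 8) and 2 with the component as a covariate. For single lines a call is a region in a line, and there were 0 such calls. With the component there were 9, with region 10 called in both DGRP_28243 and DGRP_25185. The share of all regions called in each line concerned is given above. At a mean count of 50 or more there were 2 calls (regions 10 and 21 in DGRP_28243). Along the component 28 regions were called; 16 with library totals, 11 of the 31 tested at a mean count of 50 or more, 12 with the replicate block in the 16 libraries, 12 in the 15 single-library lines, and 23 to 29 with a library left out. The slopes of regions 38 and 26 passed in all of these, as did those of regions 6 and 39 wherever they were tested. The slope of region 14 reversed with the replicate block, to -0.0505. Totals in place of TMM moved the median slope of all regions to 0.01, against 0.07. The fold of the highest over the lowest line was 1.49 and stayed between 1.37 and 1.52. The causes were not tested. Regions with few reads, such as region 38 with 2 in 1 library, are limited by depth.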
